A study of Homo sapiens with 4 samples.

Results

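The comparison described here is the library of AC16 cells kept for 30 min in 10 nM doxorubicin against the untreated library (0 min), 2 of the 4 libraries of a time course that also holds 10 min and 360 min. AC16 is an established human line that arose from the fusion of heart muscle cells of an adult ventricle with a transformed fibroblast, and its label is cardiomyocyte. Doxorubicin, an anthracycline used against cancer and known for damage to the heart, slips between DNA bases and locks topoisomerase II in its cleavage complex. Treated cells lost their serum-containing medium, were rinsed once and received the drug in DMEM without serum, and it is not stated if the 0 min cells, labelled untreated, went through these steps. The drug, the change of medium and the loss of serum therefore cannot be told apart in any value below. All cells were detached with trypsin before extraction, and RNA was purified on poly(dT) beads and copied into cDNA.

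Each time point is 1 library of the same line, so no value has a replicate check, no test was made, and each ratio compares 2 libraries rather than 2 conditions. A range after a fold or ratio is its 95% counting interval, and it covers counting error only. In such bulk RNA, fewer cells that make a transcript and less of that transcript per cell cannot be told apart.

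Within minutes of a change in growth factors, stress or handling, mammalian cells transcribe immediate early genes, whose promoters hold factors that are already bound and wait for a kinase signal. Their products are transcription factors of the FOS, JUN, EGR and KLF families, phosphatases and adaptor proteins that shut the kinases down again, and secreted ligands. Most of these transcripts decay quickly, in part through AU-rich elements near their 3′ ends, so that their levels follow transcription closely. In heart cells the same genes are known to respond to stretch, hormones and oxidative stress.

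The deposited counts summed to 56875881 at 0 min and 55278725 at 30 min, worth about 14218970 and 13819681 read pairs if 1 pair gives 4 counts, an assumption on which every interval width rests, and the 4 libraries lay between 55156612 and 56875881. Levels below are in CPM, locus counts scaled to library size, with TMM factors applied. Values stand in the order 0, 10, 30 and 360 min unless said otherwise. The rule for calling a locus higher or lower was a ratio of 2-fold or beyond, 5 CPM or more on at least 1 side, and an interval clear of 1. Of 11808 loci with 5 CPM or more in either library, 197 were higher (1.67%) and 163 lower (1.38%), together 3.05%. The median fold was 2.43 among the higher loci and 2.44 among the lower loci, and 140 and 117 of them lay under 3-fold. Over all compared loci the median log2 ratio was -0.0062, with 5th and 95th percentiles of -0.57 and 0.59. At the edge of the rule, SUV39H1 stood at 2.01-fold higher inside it and SPRTN at 1.99-fold outside it, and CDH6 at 2.01-fold lower inside it and ESRRA just short of 2-fold outside it. The 10 min library stood apart, with counts at 29129 loci against 27314 to 27461 in the others, which touches the 10 min values given for each gene.

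**Figure D1:**
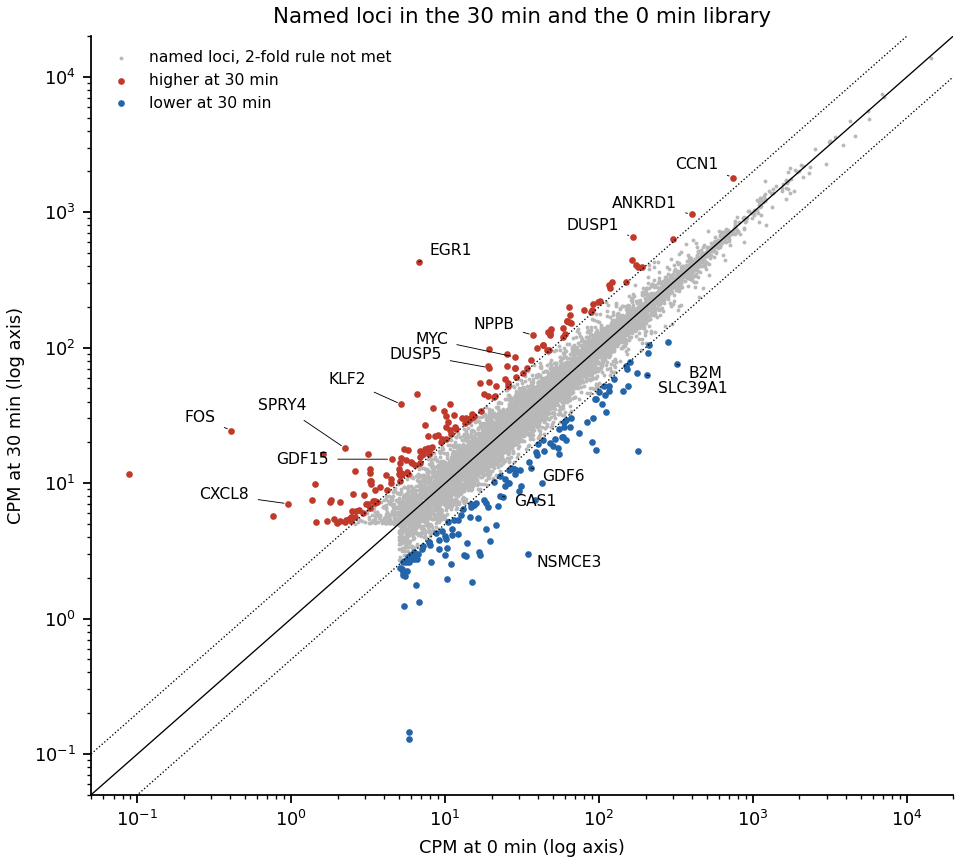
CPM of each named locus at 0 min (horizontal) and at 30 min (vertical), both on log axes. Red points were called higher and blue points lower at 2-fold, the solid line marks equal values and the dotted lines 2-fold. EGR1 and FOS lie farthest above the diagonal among the labelled genes, while the bulk of loci with 100 CPM or more stays between the dotted lines.

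The cardiomyocyte label was checked against marker genes by annotated transcripts. Of 19 cardiomyocyte markers, 17 were listed, and 9 of these stayed below 1 CPM in all 4 libraries, among them the sarcomere genes TNNT2, TNNI3, MYH6, MYH7 and ACTN2 (at most 0.718 CPM). The sarcomere gene TTN, by contrast, stood at 13.4 to 22.5 CPM and RYR2 at 8.55 to 13.6 CPM. The ventricular light chain MYL2 stood at 31.3 to 42.9 CPM, the cardiac transcription factor NKX2-5 at 11.5 to 27.3 CPM and the natriuretic peptide gene NPPB at 42.0 to 138 CPM. The matrix genes COL1A1 and FN1 stood at 5321 to 6721 CPM and 1426 to 2682 CPM. Of 16 listed fibroblast markers, 10 reached 10 CPM or more in at least 1 library. VIM, for instance, stood at 2481 to 4152 CPM and PDGFRB at 129 to 207 CPM. Some others were near 0, with POSTN and TCF21 at 0.0994 CPM or less and COL3A1, THY1 and FAP at 1.27 CPM or less. Markers of other cells were mixed as well. PTPRC (leukocytes), PECAM1 and CDH5 (endothelium) and EPCAM (epithelium) stayed under 1 CPM in all 4 libraries. TIE1 stood at 12.5 to 32.9 CPM and VWF at 4.35 to 11.7 CPM among endothelial genes, CD68 at 32.2 to 62.2 CPM and CSF1R at 5.63 to 9.80 CPM among immune genes, and the keratin genes KRT8 and KRT18 at 180 to 369 CPM. The summed level of the measured fibroblast markers was 12023 CPM at 0 min and 9891 at 30 min, and that of the 7 measured cardiomyocyte markers 111 and 211 CPM. Most of the latter difference lay in NPPB (37.4 and 124 CPM by locus), and the other 6 had ratios of 0.982 to 1.27. TTN, which has no locus of its own, is outside that sum, with a ratio of 0.742 (0.603 to 0.911) by annotated transcripts. Of the 10 fibroblast markers measured by locus, 4 stood above their 0 min level. By annotated transcripts, COL1A1 went from 6346 to 5435 CPM and COL5A1 from 3167 to 2371. LOX went from 81.8 to 159 CPM and DDR2 from 187 to 277.

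EGR1 and FOS, immediate early transcription factors, were among the strongest increases at 30 min. The 4 lists of early regulators (AP-1 factors, EGR and NR4A factors with SRF partners, IER and other small early genes, and KLF factors) had 63 measured members, of which 51 reached the level needed for a call. Of these 51, 12 were higher and 0 lower, or 23.5% against 1.67% of all loci, and their median log2 ratio was 0.41 against -0.0062 over all compared loci. Of the 63, 42 stood above their 0 min level, so the families did not move as blocks.

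EGR1, a zinc-finger factor and a classic target of serum response factor (chromosome 5, 138465490 to 138469315, GRCh38), stood at 6.72, 83.2, 430.2 and 9.86 CPM. That is 64.0-fold (52.2 to 79.3) above 0 min at 30 min, and the 360 min library lay back near the 0 min level. All of its counts fell in 1 annotated transcript in every library. Its relatives EGR2 and EGR3 were too low for a call. EGR2 stood at 0.142, 1.05, 3.95 and 0.220 CPM (ratio 27.9, 7.35 to 236) and EGR3 at 0.177, 0.488, 2.62 and 0 CPM (14.8, 4.27 to 92.6). Each was highest at 30 min, with wide intervals because the 0 min library held only a few read pairs. The orphan nuclear receptor gene NR4A1 was 2.29-fold higher (5.14, 11.3, 11.8 and 6.52 CPM), and as high at 10 min, with a change of leading transcript model and 10.3% of its exons overlapped by an opposite gene. The co-repressor NAB2 was at a ratio of 0.812 and SRF itself at 1.35, both short of the rule.

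In the AP-1 family, whose members pair as dimers on DNA, FOS (chromosome 14, 75278774 to 75282230) stood at 0.408, 8.32, 24.4 and 0.385 CPM, 59.9-fold (26.8 to 169) higher at 30 min. Its counts were split among several transcripts, and the leading model changed between 2 coding ones. FOS-204 led at 0 min with 39.1%, and FOS-201 went from 30.4% to 58.6%. Both 0 min shares rest on few read pairs, with an interval of 4.33% to 77.7% each. ATF3, a stress-responsive repressor, stood at 10.8, 12.8, 38.7 and 18.2 CPM (3.59-fold, 2.99 to 4.33). JUNB was 2.60-fold higher (47.7, 105, 124 and 43.9 CPM) and FOSL1 2.30-fold (65.9, 51.3, 152 and 88.6 CPM). The coding model FOSL1-201 had a ratio of 1.51 (1.36 to 1.68). An assembled model of FOSL1 went from 20.3% of counts at 0 min to 38.7% at 30 min. Over annotated transcripts the TPM of FOSL1, a level per transcript length, was 76.2 at 0 min and 139 at 30 min, under 2-fold. FOS and JUNB, the latter overlapped over 14.2% of its exons by an opposite gene, were already high in the 10 min library, whereas ATF3 and FOSL1 were not. Thus 4 of the 13 compared members were higher, against 1.67% of all loci, and 0 lower, with a list median of 0.50. JUN stood at 1.79 (1.71 to 1.86) and JUND at 1.62, both under 2-fold, and the FOS relative FOSB, at 2.01 CPM, was too low for a call. FOSL2, at 663 and 598 CPM at 0 and 30 min, stood at 0.903, and the small MAF gene MAFK at 0.541 (0.493 to 0.593).

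Among Krüppel-like factors, zinc-finger proteins with links to vessel and muscle cell states, KLF2 (chromosome 19, 16324817 to 16327874) stood at 5.20, 6.52, 38.1 and 10.1 CPM, 7.33-fold (5.73 to 9.50) higher at 30 min and near its 0 min level at 10 min. KLF6, at 120.3, 174, 305 and 143 CPM, was 2.53-fold (2.39 to 2.68) higher. KLF16, at 6.60, 40.9, 45.8 and 39.7 CPM, was 6.94-fold higher, but there it was the 0 min library that stood below the other 3. A gene on the opposite strand overlaps 16.3% of its exons. The other 9 compared KLF genes lay between 0.845 (KLF12) and 1.74 (KLF13), and KLF4 and KLF10 stood at 1.34 and 1.02.

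Of the small early genes, MYC (chromosome 8, 127735434 to 127741434), a growth regulator, was 2.99-fold (2.67 to 3.36) higher at 28.5, 64.6, 85.2 and 37.6 CPM. CSRNP1, a nuclear protein of the AXUD family, was 2.88-fold higher (19.3, 17.1, 55.6 and 23.2 CPM), and SGK1, a kinase gene induced by serum and steroids, 2.53-fold with a changed leading model (28.2, 36.6, 71.4 and 24.6 CPM). All 3 were highest at 30 min of the 4 libraries. IER3, at 0.266 and 3.68 CPM, and NPAS4, at 0.142 and 2.05 CPM, had ratios of 13.8 (4.94 to 55.7) and 14.5 (3.64 to 125) but were too low for a call. Other members known as early genes stood near or below 1, IER2 at 0.785, PHLDA1 at 0.832 and RHOB at 1.03.

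**Figure D2:**
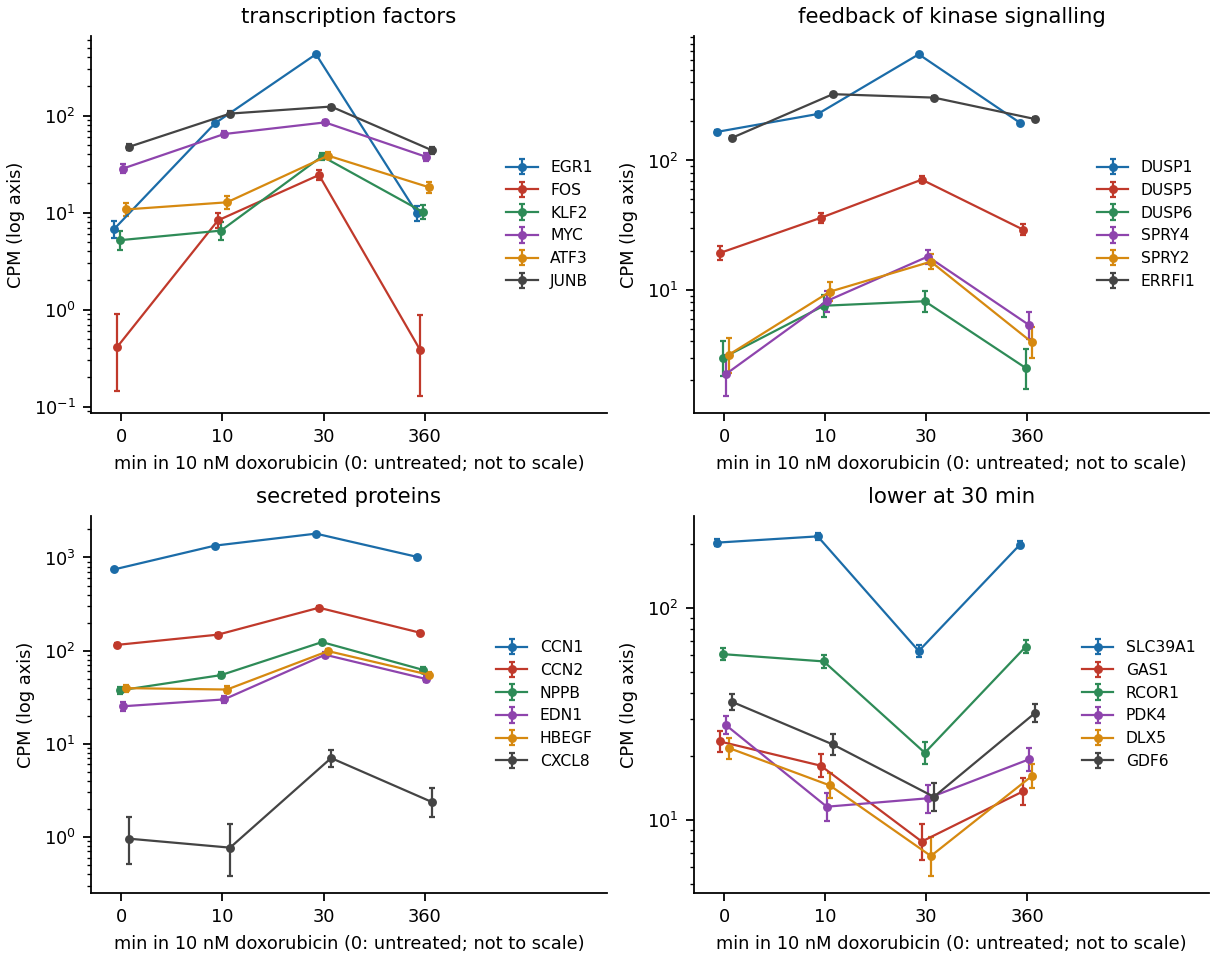
CPM (log axes) of selected loci in the libraries of 0, 10, 30 and 360 min, with 95% Poisson intervals from read pairs and times evenly spaced. Increases peak at 30 min in most panels, from FOS at 0.408 to 24.4 CPM to CCN1 at 743 to 1804 CPM, and 5 of the 6 decreases shown are lowest at 30 min, PDK4 being the exception at 11.6 CPM at 10 min.

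The upstream sequences of 6 higher genes are shown, chosen because each has a match to a short motif named below. Many other higher genes, among them KLF2, KLF6, ATF3, SPRY2 and SPRY4, had no such match in the same stretch. Each is the 250 bases before the transcription start in the RefSeq promoter table (GRCh38.p14), read 5′ to 3′ on the gene's strand. Capitals mark matches to the CArG box of serum response factor, to the cAMP response element TGACGTCA, to the AP-1 site TGANTCA or to the TATA box TATAAA, each searched on both strands and by letters alone. The stretches lie at chr5:138465229-138465478 (plus strand) for EGR1, chr14:75278578-75278827 (plus) for FOS, chr19:12791236-12791485 (plus) for JUNB, chr5:172771196-172771445 (minus) for DUSP1, chr19:48872171-48872420 (plus) for PPP1R15A and chr4:73740319-73740568 (plus) for CXCL8.
EGR1: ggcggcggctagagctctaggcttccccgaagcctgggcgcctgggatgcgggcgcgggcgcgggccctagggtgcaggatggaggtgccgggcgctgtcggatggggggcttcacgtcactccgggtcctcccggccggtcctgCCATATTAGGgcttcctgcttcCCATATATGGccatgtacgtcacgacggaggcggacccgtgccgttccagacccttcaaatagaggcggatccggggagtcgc
FOS: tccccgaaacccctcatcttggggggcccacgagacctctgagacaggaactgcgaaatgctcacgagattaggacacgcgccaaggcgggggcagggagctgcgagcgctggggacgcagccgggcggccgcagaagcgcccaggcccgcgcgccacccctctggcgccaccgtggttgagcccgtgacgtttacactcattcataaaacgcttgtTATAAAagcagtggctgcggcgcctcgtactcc
JUNB: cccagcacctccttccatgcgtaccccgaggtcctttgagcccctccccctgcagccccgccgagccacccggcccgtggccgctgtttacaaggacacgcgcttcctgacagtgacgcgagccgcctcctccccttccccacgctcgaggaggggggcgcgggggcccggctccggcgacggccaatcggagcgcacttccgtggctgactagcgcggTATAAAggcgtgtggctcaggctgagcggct
DUSP1: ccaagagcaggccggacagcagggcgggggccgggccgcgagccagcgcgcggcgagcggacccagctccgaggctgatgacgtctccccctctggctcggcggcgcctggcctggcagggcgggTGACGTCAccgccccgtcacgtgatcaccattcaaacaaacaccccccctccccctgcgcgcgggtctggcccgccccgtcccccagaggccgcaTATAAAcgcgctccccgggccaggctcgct
PPP1R15A: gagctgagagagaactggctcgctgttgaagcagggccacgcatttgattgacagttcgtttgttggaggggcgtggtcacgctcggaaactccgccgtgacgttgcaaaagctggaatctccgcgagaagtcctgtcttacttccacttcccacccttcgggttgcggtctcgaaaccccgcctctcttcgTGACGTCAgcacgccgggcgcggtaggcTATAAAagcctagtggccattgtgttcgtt
CXCL8: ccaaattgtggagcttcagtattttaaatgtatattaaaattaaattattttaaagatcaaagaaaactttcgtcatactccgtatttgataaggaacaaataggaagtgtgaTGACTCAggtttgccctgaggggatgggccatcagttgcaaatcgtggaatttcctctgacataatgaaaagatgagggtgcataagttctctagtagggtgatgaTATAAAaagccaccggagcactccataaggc
EGR1 has 2 CArG boxes and no TATA match. FOS and JUNB show a TATA box shortly before the start, as do the other 3. DUSP1 and PPP1R15A have both a cAMP response element and a TATA box, and CXCL8 an AP-1 site and a TATA box.

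In windows from 250 bases before to 50 after the start, 8023 of 9742 compared protein-coding loci had a match by symbol. A TATA box was present in 12.1% of the 116 higher loci with a window, in 3.16% of the 95 lower loci and in 5.04% of all compared loci, but in 12.0% of all 27305 promoters in the table. The cAMP response element was in 6.03%, 2.11% and 3.69% of the same 3 groups and in 1.98% of all promoters. The AP-1 site was in 6.90%, 9.47% and 4.18% (7.76% of all promoters) and the NF-kB site, kappaB, in 6.90%, 12.6% and 6.46% (5.72% of all). The CArG box was found in 1.72%, 2.11% and 1.05%, or 2 higher and 2 lower genes, EGR1 being 1 of the former. These are matches of letters in a fixed window, not sites of binding. Among the 10 early-list genes that were higher and had a window, 3 had a TATA box (FOS, JUNB and SGK1) and 1 a CArG box (EGR1).

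Several inhibitors of kinase signalling were higher at 30 min, while in the lists of RAS, RAF, MEK and ERK and of JNK and p38 pathway genes only GADD45A, not itself a kinase, passed the rule. Of 34 compared members of the 2 feedback lists (DUSP phosphatases and receptor tyrosine kinase feedback), 7 were higher and 1 lower, 20.6% against 1.67% of all loci, with a median log2 ratio of 0.17. Of 36 compared members of the 2 kinase lists, 1 was higher and 0 lower, with a median of -0.013.

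DUSP1, a nuclear phosphatase that inactivates p38, JNK and ERK (chromosome 5, 172768090 to 172771195), stood at 166, 228, 660.4 and 196 CPM, 3.98-fold (3.80 to 4.17) higher. DUSP5, a nuclear ERK phosphatase, stood at 19.3, 36.0, 71.1 and 29.3 CPM (3.69-fold, 3.22 to 4.24). DUSP6, its cytoplasmic counterpart, stood at 2.98, 7.55, 8.18 and 2.49 CPM (2.75-fold, 1.91 to 4.02). The first 2 were highest at 30 min, while DUSP6 was about as high at 10 min. A gene on the opposite strand covers 40.5% of the exons of DUSP6, and per transcript length it stood at 1.95-fold. The other 6 compared DUSP genes were not called. DUSP4 stood at 1.39 and DUSP10, which acts on JNK and p38, at 0.560 (0.510 to 0.615), from 90.2 to 50.5 CPM.

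The Sprouty and Spred proteins inhibit RAS and ERK signalling downstream of growth factor receptors. SPRY4 (chromosome 5, 142310427 to 142326455) stood at 2.23, 8.21, 18.1 and 5.37 CPM, 8.10-fold (5.58 to 12.1) higher, and SPRY2 (chromosome 13, 80335976 to 80340951) at 3.16, 9.69, 16.5 and 3.94 CPM, 5.24-fold (3.78 to 7.39) higher. SPRED3 stood at 4.15, 11.9, 11.4 and 4.65 CPM (2.76-fold). Its TPM over annotated transcripts was 4.30 at 0 min and 6.99 at 30 min, under 2-fold. SPRY1 and SPRY3 stayed under 3 CPM, with ratios of 3.18 (0.801 to 18.2) and 2.12 (1.20 to 3.88), both too low for a call, and the interval of SPRY1 held 1. SPRED1 and SPRED2, by contrast, stood at 1.10 and 1.28. ERRFI1, an inhibitor of the EGF receptor, was 2.05-fold (1.94 to 2.16) higher at 149, 325, 306 and 209 CPM and was as high in the 10 min library.

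Other feedback genes of the list were flat or low. The cytokine signalling inhibitors SOCS3 and CISH stood at 1.15 and 0.998, the RAS inhibitor NF1 at 0.691 and the pseudokinase gene TRIB2 at 0.551. SOCS7 was the 1 lower member, 2.44-fold, but its leading transcript model changed, from an assembled model with 92.4% of its counts at 0 min to 11.2% at 30 min. By its annotated transcripts alone it was higher, with a log2 ratio of 2.27, so its direction depended on which transcripts were counted.

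Upstream of these genes, HBEGF, the heparin-binding ligand of the EGF receptor, stood at 39.6, 38.2, 98.9 and 55.0 CPM, 2.50-fold (2.26 to 2.76) higher. The other 6 compared members of the EGF family list were not called, and EGFR stood at 189 and 190.0 CPM (ratio 1.00, 0.950 to 1.06). The 19 RAS, RAF, MEK and ERK pathway genes had ratios that all fell short of the rule, with a median log2 ratio of 0.020. Among 17 compared JNK and p38 pathway genes, 1 was higher, against 1.67% of all loci. It was GADD45A, a stress protein that binds an upstream kinase, at 61.5, 88.8, 156 and 83.1 CPM (2.54-fold, 2.35 to 2.76). The p38 alpha gene MAPK14 stood at 0.667 (0.586 to 0.758). In the list of RGS and cAMP feedback genes, 1 of 18 compared was higher, against 1.67% of all loci, with a median of 0.11. RGS4, which speeds up the G protein cycle, was 2.17-fold higher (14.8, 14.6, 32.1 and 36.1 CPM) and was as high at 360 min, while SIK1 stood at 1.57 and CRTC1 at 0.594.

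**Figure D3:**
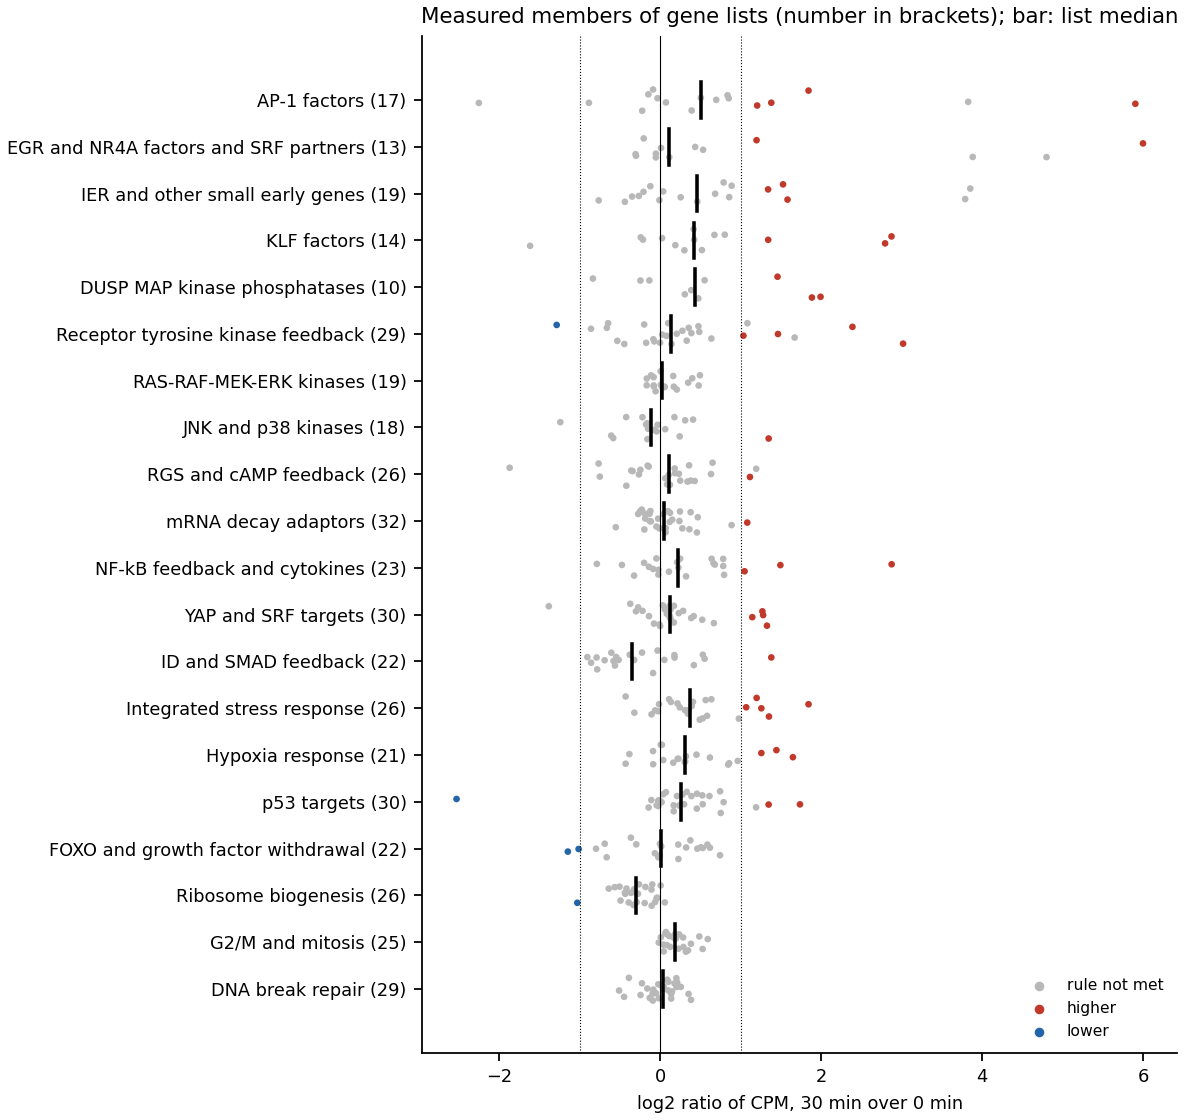
Log2 ratio of CPM at 30 min over 0 min for every measured member of 20 gene lists, 1 point a gene, with the number of measured members in brackets and the list median as a black bar. Red and blue points were called higher and lower, dotted lines mark 2-fold, and grey points beyond them are genes under 5 CPM in both libraries or with an interval that held 1. Early, DUSP and integrated stress lists sit to the right of 0, kinases around it, and ID and SMAD feedback and ribosome biogenesis to its left.

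Among factors of transcript decay, some are early genes with short-lived RNA of their own. ZFP36, which binds AU-rich elements and recruits deadenylases, was 2.12-fold (1.64 to 2.75) higher at 6.40, 22.7, 13.5 and 9.31 CPM, with its highest level at 10 min. It was the only 1 of 32 compared decay factors called, against 3.05% of all loci, and the list median was 0.047. The ribonuclease gene ZC3H12A stood at 1.85 (1.56 to 2.19), while ZFP36L1 and ZFP36L2 stood at 1.07 and 1.21.

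NF-kB feedback genes and cytokines had 3 of 19 compared members higher, against 1.67% of all loci, and 0 lower, with a median of 0.23. The chemokine gene CXCL8 stood at 0.958, 0.767, 7.03 and 2.36 CPM (7.34-fold, 4.13 to 14.1). NFKBIZ, a nuclear co-regulator of NF-kB, stood at 11.4, 18.5, 32.0 and 9.80 CPM (2.81-fold, 2.34 to 3.39). LIF, a cytokine of the interleukin 6 family, stood at 21.1, 31.4, 43.7 and 25.3 CPM (2.07-fold, 1.80 to 2.38). All 3 were highest at 30 min. The inhibitors NFKBIA and TNFAIP3, typical early NF-kB targets, stood at 1.56 (1.38 to 1.76) and 1.72 (1.36 to 2.19), under 2-fold, and IL11 at 0.579, from 137 to 79.4 CPM.

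Targets of YAP and serum response factor, which respond to cell shape and tension, had 4 of 28 compared members higher, against 1.67% of all loci, and 0 lower, with a median of 0.12. CCN1, a secreted matrix protein gene, stood at 743, 1341, 1804 and 1016 CPM (2.43-fold, 2.37 to 2.48). CCN2 stood at 115, 148, 289 and 156 CPM (2.51-fold), ANKRD1, a muscle ankyrin repeat protein gene, at 400.0, 440.2, 964 and 616 CPM (2.41-fold), and AMOTL2 at 178, 240.0, 393 and 198 CPM (2.21-fold). All 4 peaked at 30 min, and at 360 min each still lay above its 0 min level. Cytoskeletal members did not follow: ACTB stood at 1.10, TAGLN at 1.12 and TPM1 at 0.826. Against the median of the other 3 libraries, 1 member of the list was higher.

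Further secreted proteins and receptors stood among the higher loci. EDN1, the precursor of the vasoconstrictor endothelin 1 (chromosome 6, 12290363 to 12297194), stood at 25.3, 29.9, 90.4 and 49.6 CPM (3.58-fold, 3.18 to 4.04), and NPPB, the natriuretic peptide gene of stretched heart muscle (chromosome 1, 11857464 to 11858931), at 37.4, 54.6, 124 and 62.1 CPM (3.30-fold, 2.99 to 3.65). Both were highest at 30 min. TIMP2, an inhibitor of matrix proteases, was 2.73-fold higher (163, 216, 445 and 152 CPM), with a change of leading model between 2 coding transcripts. PTGER4, a prostaglandin E2 receptor gene, was 3.90-fold higher (3.26, 5.02, 12.7 and 5.50 CPM) with a changed model, and P2RX7, an ATP-gated channel gene, 3.62-fold (7.41, 17.9, 26.8 and 16.4 CPM). The following were chosen after their values were seen. INHBA, an activin subunit gene, was 2.08-fold higher (190.5 to 395 CPM), STC1, the gene of stanniocalcin 1, 2.12-fold (10.8 to 22.9 CPM), RCAN1, a calcineurin inhibitor gene, 2.37-fold (117 to 277 CPM) and EPHA2, an ephrin receptor gene, 2.11-fold (90.5 to 191 CPM).

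Stress pathways moved in part. The integrated stress response list had 5 of 26 members higher, against 1.67% of all loci, and 0 lower, with a median of 0.37. Against the median of the other 3 libraries, 3 were higher. Besides ATF3, these were PPP1R15A, which restores translation by dephosphorylating eIF2 alpha (61.8, 62.3, 158 and 76.5 CPM, 2.55-fold), VEGFA (58.5, 97.5, 140 and 94.6 CPM, 2.39-fold), the cystine transporter gene SLC7A11 (91.9, 86.2, 211 and 120 CPM, 2.29-fold) and the amino acid transporter gene SLC7A5 (59.7, 69.3, 125 and 75.3 CPM, 2.10-fold). The leading models of VEGFA and SLC7A5 changed. ATF4 stood at 1.28, its target CHAC1 at 1.97 and DDIT3, the gene of CHOP, at 1.08. The chaperone gene HSPA5, a marker of the unfolded protein response, stood at 0.990 (0.973 to 1.01).

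Of 17 compared heat shock protein loci, 0 were called in either direction, against 3.05% of all loci, with a median of 0.0094. HSPH1, DNAJB1 and DNAJA1 stood at 0.848, 0.813 and 0.745. The stress-inducible HSP70 genes HSPA1A and HSPA1B had no locus of their own. Their annotated transcripts, near-identical copies that short reads cannot assign, summed to 6.72, 33.3, 166 and 239 CPM, 24.8-fold (19.9 to 31.2) higher at 30 min. The counts sat in HSPA1A at 30 min and in HSPA1B at 360 min, so only the sum is read here. The sum was highest at 360 min.

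Hypoxia genes had 3 of 21 higher, against 1.67% of all loci, and 0 lower, with a median of 0.31. ENO2 (63.6, 249, 199 and 129 CPM), BNIP3L (64.6, 173, 176 and 164 CPM) and VEGFA were the 3, and ENO2 and BNIP3L were as high or higher at 10 min. Against the median of the other 3 libraries 0 of the 21 were called and the median was 0.11. Among 29 compared p53 targets, GDF15 (4.51, 15.3, 15.0 and 6.50 CPM, 3.33-fold) and GADD45A were higher and MDM4 lower. Of all loci, 1.67% were higher and 1.38% lower. The median of the p53 list was 0.26. CDKN1A stood at 1.44 (1.37 to 1.51), and MDM2, by annotated transcripts, at 1.48 (1.36 to 1.61).

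The topoisomerase II genes were level between the libraries. TOP2A stood at 595, 265, 613 and 647 CPM (ratio 1.03, 0.999 to 1.06), TOP2B by annotated transcripts at 190.0, 177, 190.1 and 193 CPM (1.00, 0.945 to 1.06). TOP2A was low only in the 10 min library. TOP1, the gene of topoisomerase I, stood at 139, 97.6, 116 and 142 CPM, with a ratio of 0.834 (0.780 to 0.892). Of 29 compared double-strand break repair genes and 25 genes of G2 and mitosis, 0 were called, against 3.05% of all loci. Their medians were 0.036 and 0.19, and 24 of the 25 G2 and mitosis genes stood above their 0 min level. The replication factor GINS1 was the 1 of 27 called in the G1/S list, against 3.05% of all loci. It was 2.60-fold lower (57.3, 20.6, 22.0 and 20.1 CPM), and there the 0 min library stood above the other 3. Cytosolic ribosomal protein genes, 66 in number, had 0 calls, against 3.05% of all loci, and a median of -0.016.

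Other groups leaned down. The ID and SMAD feedback list, direct targets of BMP and TGF-beta signalling, had a median of -0.35, and 7 of its 22 measured members lay above their 0 min level. Its 1 call among 21 compared members, against 3.05% of all loci, was JUNB, which also belongs to the AP-1 list. ID1, ID2 and ID3, inhibitors of basic helix-loop-helix factors, stood at 0.769, 0.669 and 0.581, and the inhibitory SMAD genes SMAD6 and SMAD7 at 0.551 and 0.656. Each was within 2-fold. ID3 stood at 473, 236, 275 and 403 CPM and SMAD6 at 99.3, 60.3, 54.7 and 98.1 CPM, so the 10 min library was low as well. For ribosome biogenesis the median was -0.30. Of 26 genes, 2 stood above their 0 min level and 1 was called, against 3.05% of all loci. The called gene was POLR1G, a subunit of RNA polymerase I (39.8, 6.45, 19.5 and 37.1 CPM, 2.04-fold lower). Its locus had a changed model and 43.5% of its exons overlapped by an opposite gene. The others lay between 0.642 (UTP20) and 1.04 (POLR1F). UTP20, a component of the small subunit processome, stood at 93.7, 37.1, 60.1 and 96.6 CPM, lowest at 10 min.

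In the FOXO and growth factor withdrawal list, 2 of 21 compared members were lower, against 1.38% of all loci, and 0 higher, with a median of 0.0039. PDK4, a kinase that holds back pyruvate oxidation, stood at 28.2, 11.6, 12.7 and 19.4 CPM (2.22-fold lower, 1.85 to 2.67), and FBXO32, the muscle atrophy ubiquitin ligase gene atrogin 1, at 211, 179, 104 and 146 CPM (2.02-fold lower, 1.90 to 2.15). The insulin receptor substrate genes went opposite ways within the rule, IRS2 at 1.67 and IRS1 at 0.620.

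Several decreases had an unchanged leading model. DLX5, a homeobox factor of bone and craniofacial tissue (chromosome 7, 97020392 to 97024950), stood at 21.9, 14.6, 6.79 and 16.2 CPM, 3.23-fold (2.55 to 4.12) lower. SLC39A1, a zinc importer gene (chromosome 1, 153959099 to 153968184), stood at 204, 218, 62.8 and 199 CPM (3.24-fold lower, 3.00 to 3.50), and MAGEC1, a cancer-testis antigen gene, at 110, 88.1, 33.3 and 40.7 CPM (3.31-fold). CHST11, a chondroitin sulfotransferase gene, stood at 89.6, 71.9, 20.1 and 43.9 CPM (4.46-fold). SLC39A1 had only its 30 min library low, while the other 3 still stood below their 0 min level at 360 min. The next genes were chosen after their values were seen. GAS1, a hedgehog co-receptor, stood at 23.6, 18.1, 7.95 and 13.7 CPM (2.96-fold lower), GDF6, a BMP family ligand, at 36.2, 22.8, 12.9 and 32.0 CPM (2.81-fold), DLX1 at 16.4, 10.8, 5.49 and 10.9 CPM (2.98-fold) and SMAD5, a mediator of BMP signals, at 116, 103, 52.5 and 114 CPM (2.21-fold). RCOR1, a co-repressor that works with LSD1, stood at 60.7, 56.1, 20.8 and 66.0 CPM (2.92-fold). Each of these 5 was lowest at 30 min of the 4 libraries.

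Zinc-finger genes of the ZNF stem were called in 9 higher and 12 lower of 281 compared loci, 7.47% against 3.05% of all loci. ZNF260 (19.6, 11.4, 3.73 and 19.9 CPM, 5.24-fold lower) and ZNF7 (21.3, 15.8, 4.94 and 11.3 CPM, 4.31-fold lower) kept their leading model. ZNF736 and ZNF672, 4.70-fold and 2.99-fold lower, and ZNF267, 4.75-fold higher, changed theirs. ZNF107, chosen after its value was seen, was 2.99-fold higher.

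How reads were shared among transcript models moved with many calls. The most counted model of a locus differed between the 2 libraries for 28.9% of the higher loci, 39.9% of the lower loci and 19.4% of the loci not called. Summed per transcript length over annotated transcripts, 98 of 167 named higher loci and 85 of 140 named lower loci were still 2-fold in the same direction, and 11 and 12 pointed the other way. With both conditions, an unchanged leading model and 2-fold per length, 74 higher and 54 lower loci were left. EGR1, KLF2, SPRY4, SPRY2, DUSP1, DUSP5, EDN1, NPPB, ATF3, KLF6, JUNB, CCN1, CCN2 and HBEGF were among the 74. MYC also counted there, but 94.8% of its 30 min counts sat in an assembled model without a length, and by annotated counts its ratio was 1.89, short of the rule. How far model assignment shaped the other calls was not tested.

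B2M, which encodes the invariant chain of MHC class I molecules (chromosome 15, 44711487 to 44718877), was 4.25-fold lower by locus, at 320.1, 279, 75.3 and 266 CPM. Its nonsense-mediated decay model held 54.2% of counts at 0 min and 9.15% at 30 min, while the coding model B2M-204 went from 38.8% to 66.2%. The level of B2M-204 was itself lower, at 124 and 49.9 CPM (ratio 0.402, 0.367 to 0.439). B2M was the 1 of 13 genes of MHC class I and peptide loading that was called, against 3.05% of all loci. NSMCE3, a subunit of the SMC5/6 complex (chromosome 15, 29264992 to 29269829), stood at 34.5, 26.9, 3.02 and 38.8 CPM, with 93.9% of its 30 min counts in an assembled model that was empty in the other 3 libraries. The other 7 compared members of that complex were not called. For MDM4, an inhibitor of p53 (16.9, 17.4, 2.93 and 15.4 CPM, 5.78-fold lower), the noncoding model MDM4-210 went from 0.628% to 40.0% of counts, and its level per length was 1.18-fold that of 0 min. YTHDF2, a reader of m6A marks (18.8, 13.9, 73.0 and 19.8 CPM, 3.88-fold higher), had 89.8% of its 30 min counts in YTHDF2-209, which held 0.556% or less in each of the other libraries. The other 14 members of the m6A list were not called.

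**Figure D4:**
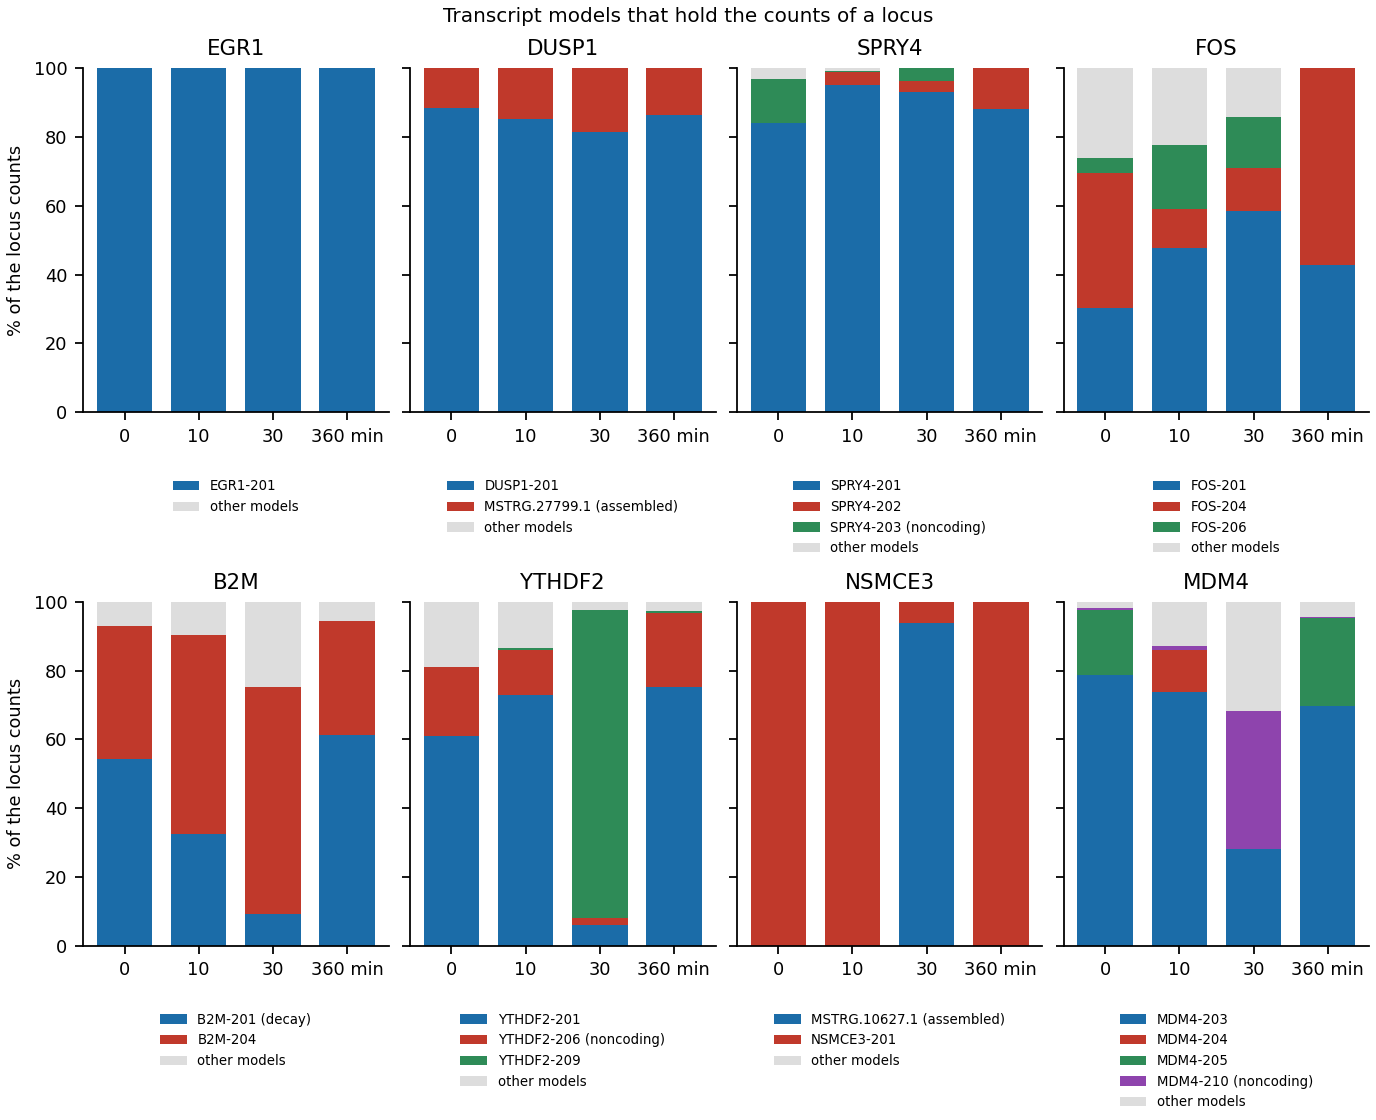
Share of each locus' counts (percent) held by its transcript models in the libraries of 0, 10, 30 and 360 min, with models that never hold much grouped in grey. EGR1, DUSP1 and SPRY4 keep the same leading model throughout, while YTHDF2, NSMCE3 and MDM4 have a different leading model in the 30 min library alone.

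Other leading calls carried similar marks. Higher loci whose leading model changed included SNX22 (0.0887, 0.209, 11.7 and 0.348 CPM), where 98.8% of the 30 min counts sat in a retained-intron model, MIR3936HG (10.2-fold), ATP6V0E2 (4.31-fold, 12.8% overlap), ENO2, ORMDL3 (3.26-fold), SUCLG2-DT (3.65-fold), SPIN1 (2.82-fold) and FER (3.11-fold). FER, SPIN1 and SUCLG2-DT were lower by annotated transcripts alone, but 1 assembled model held 95.1%, 78.8% and 93.5% of their 30 min counts. For RAB8B (5.13-fold), CYBRD1 (3.51-fold) and CREB3L2 (2.85-fold) the 10 and 360 min libraries were also above 0 min, at 24.9 CPM or more for CYBRD1 against 9.77 CPM. MRPL49 (2.91-fold, 11.6% overlap with an opposite gene) and MED18 (3.31-fold), genes of the mitochondrial ribosome and the Mediator complex, were high at 30 min alone. In MRPL49 a retained-intron model went from 6.04% of counts at 0 min to 47.4% at 30 min. Among the lower loci, TMEM164 (5.43-fold), PPARA (4.25-fold), TSC22D1 (3.15-fold), MPZL1 (2.94-fold), RALB (2.94-fold) and PDPR (2.99-fold) changed model. MRPL34 (5.16-fold, 13.2% overlap with an opposite gene), ZDHHC23 (4.34-fold), SUOX (4.48-fold), IGFN1 (5.23-fold), CCDC137 (3.36-fold) and DESI2 (2.98-fold) did not. PDP2 (4.05-fold lower by locus) was level per length, but that value leaves out its assembled model. This model held 82.6% of counts at 0 min and 64.4% at 30 min, and its own ratio was 0.193 (0.134 to 0.271). VIM-AS1, ZNF503-AS2 and SVIL-AS1, 7.97-fold, 5.39-fold and 3.45-fold lower, are antisense genes, and without a stated strand setting their reads cannot be told apart from those of the opposite gene.

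Single transcripts varied far more than loci. Of 24667 compared transcripts, 4145 were 2-fold higher (16.8%) and 3949 lower (16.0%). Of those with a named locus, 5.79% of the higher and 4.64% of the lower ones lay in a locus called the same way. Nonsense-mediated decay transcripts were called most often, 25.6% higher and 24.3% lower, assembled models 21.0% and 20.8%, retained introns 19.9% and 17.8% and protein-coding transcripts 15.0% and 14.4%. Noncoding processed transcripts were called higher in 21.1% and lower in 15.2%. In the splicing kinase list CLK1 was the 1 of 21 called, against 3.05% of all loci. It was 2.44-fold lower (35.0, 21.8, 14.3 and 35.8 CPM), again with a changed leading model.

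Higher loci came from shorter genes with fewer exons. Among protein-coding loci the median gene span was 21.9 kb for the higher, 24.0 kb for the lower and 35.4 kb for all compared genes, and the median number of exons 6, 6 and 9. The 12 early-list genes that were higher had a median span of 8.91 kb and 4 exons, but the 51 compared members of those lists were already short, at 13.1 kb and 4 exons. Of genes under 5 kb, 2.63% were higher and 2.04% lower, against 0.798% and 1.25% of genes of 100 kb or more. Of genes with 16 or more exons, 0.307% were higher and 0.570% lower. Few exons went with calls in both directions, 3.03% and 4.55% of single-exon genes.

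The AU-rich pentamer ATTTA, a mark of short-lived transcripts, was counted after the stop codon of 1 annotated transcript a gene. At least 3 copies were present in 55.5% of the higher, 49.6% of the lower and 45.5% of all compared genes. The share was 76.0% among the 50 compared early-list members with such a stretch, but 58.3% among the 12 early-list genes that were higher. By copies, the share called higher was 0.917% with 0, 1.51% with 1 to 2, 2.29% with 3 to 5, 1.40% with 6 to 9 and 1.53% with 10 or more, so it did not climb steadily. The share called lower went from 1.07% with 0 copies to 1.76% with 10 or more. CXCL8 had 9 copies, SPRY4 had 8, FOS, CCN1 and ZFP36 had 5 each, and EGR1 had 1.

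**Figure D5:**
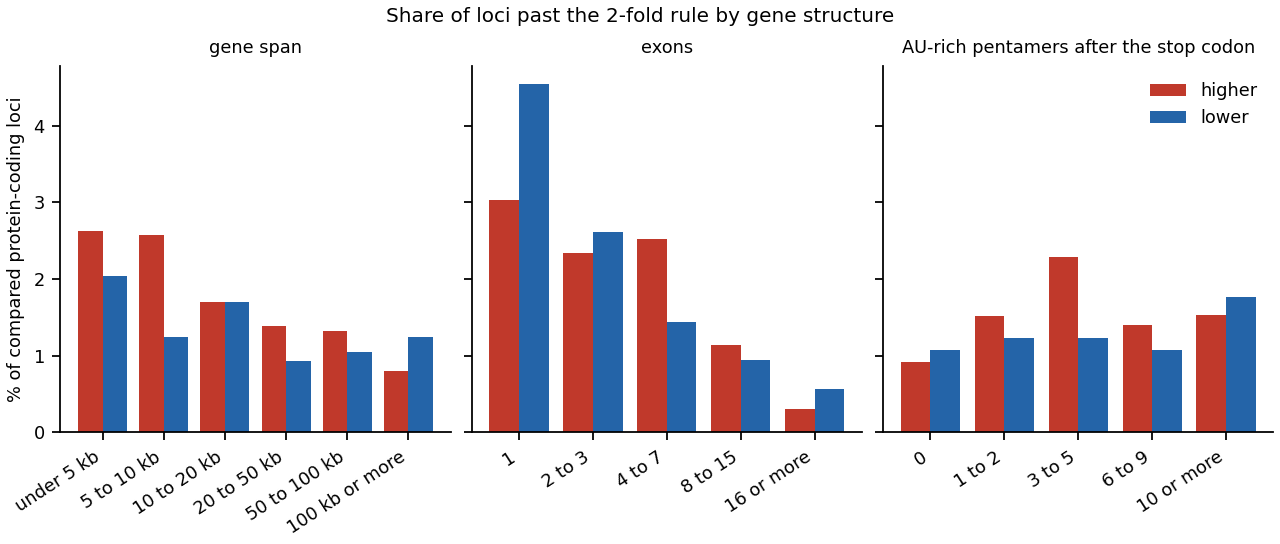
Percent of compared protein-coding loci called higher (red) or lower (blue) at 30 min by gene span, number of exons and number of AU-rich pentamers after the stop codon, with bars from 0. The share called higher falls from 2.63% under 5 kb to 0.798% at 100 kb or more, and the highest share by pentamers, 2.29%, is at 3 to 5 copies.

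On a scale per transcript length (TPM over annotated transcripts), which lets genes be compared with each other, the order of the early genes differed from the order of their folds. EGR1 stood at 307 TPM at 30 min, rank 474 of all genes against rank 11678 at 0 min. DUSP1 stood at 597 (rank 219, from 992), NPPB at 399 (rank 339, from 1403) and CCN1 at 1821 (rank 49, from 169). FOS, with nearly the same fold as EGR1, reached 41.5 (rank 4165, from 16947) and SPRY4 10.8 (rank 9208, from 13836). Of these genes CCN1 was the most abundant at 30 min, followed by ANKRD1 at 1093 (rank 111). MYC and LIF are not placed in this order, because assembled models, which have no length here, held 94.8% of the 30 min counts of MYC and 60.8% and 25.3% of those of LIF.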

How the data were processed

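One poly(A) RNA library of AC16 cells was made at each of 4 times. The authors deposited estimated counts per assembled locus and per transcript, with reads aligned by HISAT2 to GRCh38 and DESeq2 also named, per the submitters' processing notes; no source used here gives their versions, the counting tool, its strand setting or the annotation release. Of low deposited estimated counts, 33.6% were multiples of 4 against 25% by even spacing, so 1 read pair was taken as 4 counts and intervals were computed on counts divided by 4. This reading is not certain and sets the width of every interval. Counts were used unrounded with TMM factors over all 4 libraries (edgeR 4.0.16, R 4.3.3, Python 3.11.15); edgeR served for scaling alone. Loci were named through transcript identifiers of GENCODE 29, 15289 by a single gene and 705 by a gene with at least 95% of the counts, which covers 87.5% of counts. Assembled models held 11.1% of counts. Locus values add all models, so a shift of reads between long and short models moves them.

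Ratios are TMM-scaled CPM at 30 min over 0 min with exact binomial 95% intervals. The code was tested on simulated data. List medians cover members that reach 1 CPM in any of the 4 libraries, against a median log2 ratio of -0.011 over all 16740 such loci. A ratio with 0 counts on 1 side was set against a floor of 3 read pairs. Named genes were the list members past the rule, up to 4 further members a list with the largest changes at 5 CPM or more, and the 30 largest changes each way at 10 CPM or more; other members given with values were chosen after those were seen. The members and gene lists were chosen with earlier results of these data known. Alternatives were other scalings, CPM minimums and folds, another baseline, annotated transcripts alone, loci with an unchanged leading model and, chosen after seeing the data, levels per transcript length. Some items are not reported here.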

Additional observations from a re-analysis of the deposited data

Results flagged for a closer look

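For 3 named loci the 10 min and 30 min libraries lay on opposite sides of 0 min by 2-fold or more, and both ratios share the 0 min library. ADAMTS14, a procollagen protease gene, stood at 31.2 CPM at 0 min, 77.1 at 10 min and 9.45 at 30 min, a ratio of 2.47 at 10 min and 0.302 at 30 min. FBXO34, an F-box gene, had a ratio of 2.26 at 10 min and 0.265 at 30 min. SPIN1, a reader of histone methylation, had a ratio of 0.457 at 10 min and 2.82 at 30 min. With 1 library a time, none of these differences was tested.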

How the results depend on the processing

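No paired analysis was possible because each time has 1 library, and no library could be left out for the same reason. Scaling by total counts or by median of ratios kept all 93 named calls. Taking counts undivided only narrows the intervals, so that setting could not remove a call. The count of higher loci, 197, became 1058 with no CPM minimum, 528 at 1 CPM, 98 at 20 CPM, 610 at 1.5-fold, 57 at 3-fold, 130 against the median of the other 3 libraries, 426 by annotated transcripts and 98 with 2-fold per transcript length required. The 163 lower loci became 1019, 584, 79, 572 and 46 under the first 5, 389 by annotated transcripts, 98 with an unchanged leading model and 85 per length.

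Against the median of the other 3 libraries, higher members became 1 for EGR factors, 1 for YAP targets, 3 for the integrated stress response and 0 for hypoxia, and lower members 0 for kinase feedback and 0 for ribosome biogenesis. List medians became 0.57 for small early genes and 0.11 for hypoxia. By annotated transcripts, 1 AP-1 factor was lower, 1 EGR factor higher with a median of 0.41, 0 kinase feedback genes lower and 2 ribosome biogenesis genes lower. With an unchanged leading model the medians were 0.57 for small early genes and 0.64 for NF-kB genes, and at 5 CPM or more 0.36 for small early genes.

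The log2 ratio changed sign against the other 3 libraries for CREB3L2 (-0.17), RAB8B (-0.16) and GINS1 (0.097). By annotated transcripts it did so for FER (-1.35), SPIN1 (-0.72), SUCLG2-DT (-2.08) and SOCS7 (2.27). Per length it did so for FER (-1.51), SPIN1 (-0.63), SUCLG2-DT (-2.23), SOCS7 (1.31), MDM4 (0.24) and PDP2 (0.030). Of the 93 calls, 83 stayed past the rule by annotated transcripts, 67 against the other 3 libraries and 74 per length. For these changes the cause was not tested. Depth limits early genes under 5 CPM, such as EGR2 and FOSB, whose 0 min values rest on a few read pairs.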

Other observations

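Several groups outside the pathways above had values of their own. Among circadian clock genes 1 of 14 compared was higher, against 1.67% of all loci. That was NR1D1, a nuclear receptor that represses clock genes, at 5.09, 25.1, 14.0 and 5.35 CPM (2.74-fold), and it was highest at 10 min. In the list of host genes of small RNAs 1 of 20 was higher, MIR3936HG, against 1.67% of all loci. MIR222HG, not a call of that list and chosen after its value was seen, stood at 10.4, 11.9, 28.2 and 14.1 CPM (2.72-fold higher). SNHG16, read from its annotated transcripts, stood at 15.5, 20.4, 39.7 and 12.8 CPM (2.56, 2.16 to 3.04). Cholesterol synthesis genes had 0 of 21 called, against 3.05% of all loci, and a median of -0.12. Mitochondrial ribosomal protein genes had 1 higher and 2 lower of 67, against 1.67% higher and 1.38% lower of all loci.

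The nuclear transcript NEAT1, which scaffolds paraspeckles, stood at 127, 170, 66.7 and 97.1 CPM (ratio 0.526). The glucose-sensitive arrestin gene TXNIP stood at 5.92, 75.6, 3.73 and 3.99 CPM, so that its 10 min library stood far above the other 3, while the 30 min ratio was 0.630.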
